A study of Mus musculus with 3 samples.

Results

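In mouse granulosa cells, 52 of 20504 protein-coding genes met a rule on their levels before and after an ovulatory injection. They were not lower by 2-fold 4 h after it, and were lower by at least 2-fold at 12 h than at both earlier times. At 4 h 19 of the 52 were already below their 0 h level, by less than 2-fold. The genes were found by summing the levels of all coding transcripts of each gene and comparing the 3 sums. The genes were thus selected on the 3 levels themselves. A gene was taken when its log2 fold of 4 h against 0 h was above -1, and when its log2 folds of 12 h against 4 h and of 12 h against 0 h were both -1 or less. Inhba, Fst, Fosl1, Fosl2, Id1 and Cdkn2b were left out by name, as was any gene higher by 8-fold or more at 4 h. Levels are in FPKM, that is, fragments for each kilobase of a transcript corrected for sequencing depth, and each fold is the log2 ratio of FPKM + 1, which understates the change of genes with low levels. Of the 12700 coding genes with at least 1 FPKM in 1 library, 0.409% met the rule. The levels chose the genes, so all levels and folds of the 52 genes given here are a description and no test was made on them.

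Granulosa cells are the somatic cells that line the ovarian follicle and nourish the oocyte. All animals were wild-type C57BL/6 females on postnatal days 21 to 28, and all of them, the 0 h group included, had been given 4 IU of equine chorionic gonadotropin (eCG), a hormone that makes follicles grow. The groups were follicles taken before human chorionic gonadotropin (hCG, 0 h), and 4 h and 12 h after an injection of 5 IU; hCG stands in for the natural surge of luteinizing hormone. Cells were released by puncturing follicles of immature, hormone-primed animals, so the cells were not sorted. RNA came from 3 mice at each time, but each time has 1 library, and the sources used here do not say whether the RNA of the mice was pooled. Every difference is therefore between 2 libraries, without replicate error.

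The surge of luteinizing hormone sets off a timed program in granulosa cells. Genes of ovulation, such as those for growth factors, prostaglandin synthesis and matrix remodelling, are switched on for some hours, while genes of follicle growth are turned down, and the cells then leave the cell cycle and become luteal cells that make progesterone.

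The libraries held about 13350000, 11950000 and 11650000 fragments at 0, 4 and 12 h, as read from the spacing of low FPKM values, and 1 fragment on a 2 kb transcript was worth 0.0418, 0.0467 and 0.0480 FPKM. All 11 granulosa cell markers, among them Foxl2, Amh and Inha, had at least 1 FPKM. Their summed level was 11262 FPKM at 0 h, 8841 at 4 h and 5924 at 12 h. Most of this sum was Inha alone, at 6986, 7163 and 3742 FPKM. Of the 11 genes 4 were lower and 1 was higher by 2-fold at 12 h relative to 0 h, so the sum does not stand for each marker. A gene is called measured below where it had at least 1 FPKM in 1 library. Markers of other cell types were present as well, with sums over the whole list. The endothelial list, 7 of 8 genes measured, summed to 17.4, 41.5 and 15.8 FPKM, and the leukocyte list, 5 of 7 measured, to 50.9, 72.9 and 85.2 FPKM. The erythroid list, 3 of 6 measured, summed to 540.2, 444.8 and 376.8 FPKM, and the oocyte list, 10 of 10 measured, to 196, 156 and 283 FPKM. Theca markers (7 of 7) summed to 141, 1730 and 167 FPKM, with the steroid carrier Star, which luteinizing granulosa cells also express, at 14.3, 1583 and 83.8 FPKM. In unsorted cells of this kind, fewer cells of a type and less RNA per cell cannot be told apart. Over all coding genes 934 were lower at 12 h relative to 4 h and 563, or 4.5% of those tested, were higher, so that 37.6% of the genes past 2-fold were higher. With the libraries rescaled to the mean of their summed FPKM, which moved the median of all genes by 0.35, 599 were lower and 1543 higher, or 72.0% higher. At 12 h relative to 0 h 349 genes were higher, 2.83% of those tested. For 4 h against 0 h the same rescaling moved the median by -0.28 and the share of higher genes was 35.8%, in place of 59.4%. Levels and folds below are on the deposited scale unless rescaled libraries are named.

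The 52 genes had a median level of 8.97 FPKM at 0 h, 9.54 FPKM at 4 h and 1.66 FPKM at 12 h. Over all coding genes with at least 1 FPKM in 1 library the medians were 12.2, 12.2 and 12.3 FPKM. The median log2 fold of the 52 genes was 0.36 for 4 h against 0 h, -1.77 for 12 h against 4 h and -1.52 for 12 h against 0 h, beside -0.01, 0.01 and -0.01 over all coding genes tested. At 4 h 33 of them were above and 19 below their 0 h level. 39 of the 52 reached 5 FPKM in 1 library and 13 stayed under 5 FPKM in all 3.

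**Figure D1:**
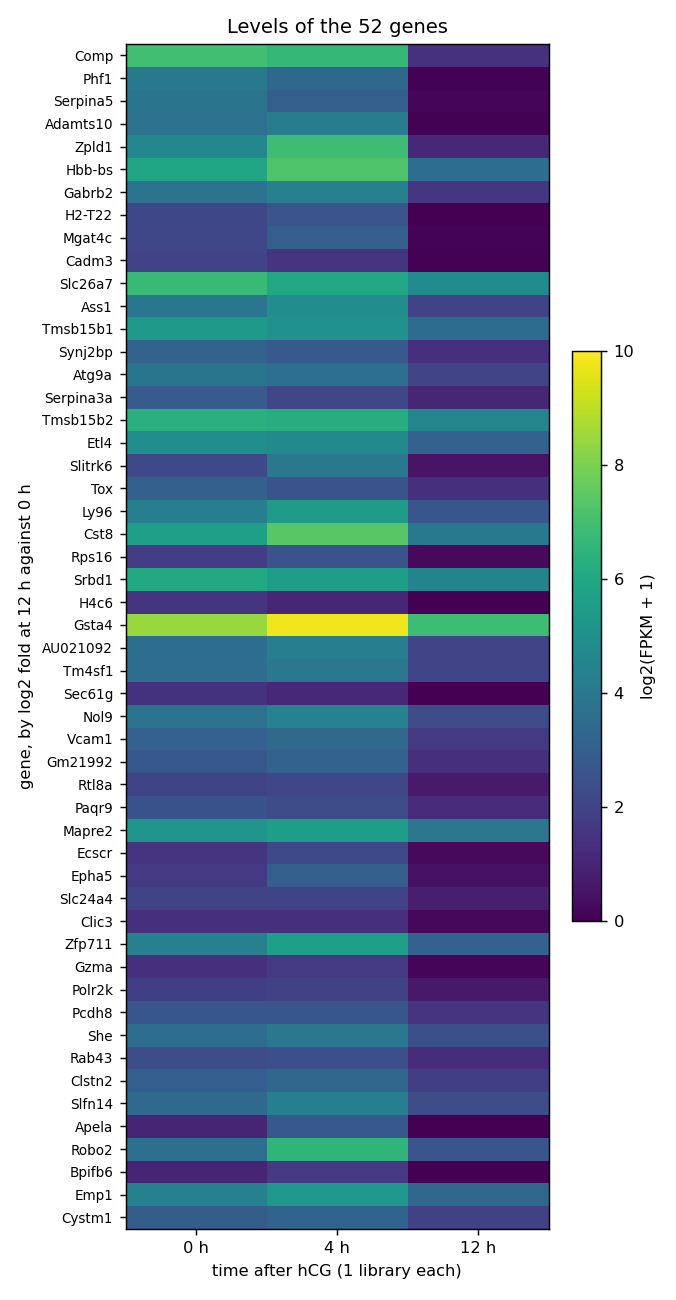
Level of each of the 52 genes at 0, 4 and 12 h after hCG (1 library per time), as log2(FPKM + 1) from dark (0) to bright (10), ordered by the log2 fold of 12 h against 0 h. Gsta4 is the brightest gene in all 3 columns, and the 12 h column is darker than the other 2 in every line, as the rule requires.

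The 4 h library separated the genes into those near their starting level and those well above it. 10 genes were higher by at least 2-fold at 4 h (Apela, Cst8, Epha5, Gsta4, Hbb-bs, Ly96, Robo2, Slitrk6, Zfp711 and Zpld1), where 9.77% of all coding genes tested were higher by the same rule. Their median level was 19.0 FPKM at 0 h, 70.9 at 4 h and 5.26 at 12 h. The other 42 genes, within 2-fold at 4 h on FPKM + 1, had median levels of 7.60, 8.15 and 1.61 FPKM. Among them Ass1 (0.997), Emp1 (0.94) and Mgat4c (0.91) had log2 folds of 4 h against 0 h just under the cut. The median log2 fold of 12 h against 0 h was -1.58 in the 10 genes and -1.51 in the 42.

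On FPKM + 1 most of the genes lay close to the 2-fold limit at 12 h. The added 1 FPKM limits the fold of genes with low levels. Cadm3, at 3.13 and 0.0429 FPKM at 0 h and 12 h, and the 4 genes listed at 0 at 12 h thus count as 2- to 4-fold. Serpina5, at 13.4 and 0.0888 FPKM, likewise counts as less than 32-fold. On this scale 43 of the 52 were lower than at 0 h by 2- to 4-fold and 9 by at least 4-fold. Of the 9, 5 (Comp, Phf1, Serpina5, Adamts10 and Zpld1) were lower by at least 8-fold and only Comp by at least 32-fold. For 2 of the 5 this held for coding isoforms alone: with non-coding isoforms summed, the log2 fold of 12 h against 0 h was -0.01 for Phf1 and 0.46 for Adamts10. Lower by 2-fold or more at 12 h relative to 0 h were 254 coding genes, 2.06% of those tested, and the 52 make up 20.5% of these. 141 of the 254 were already lower by 2-fold at 4 h, as 6.69% of all coding genes tested were; 58 more had reached their lower level without a 2-fold step after 4 h. 3 genes met the levels but not the exclusions: Inhba at 698.6, 784 and 208 FPKM, Fosl1 at 3.09, 6.51 and 0.508 FPKM, and Gsta2, which was higher by more than 8-fold at 4 h, at 4.14, 47.8 and 1.32 FPKM. Between 4 h and 12 h 934 coding genes were lower, 7.46% of those tested, and the 52 genes were 5.57% of these.

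**Figure D2:**
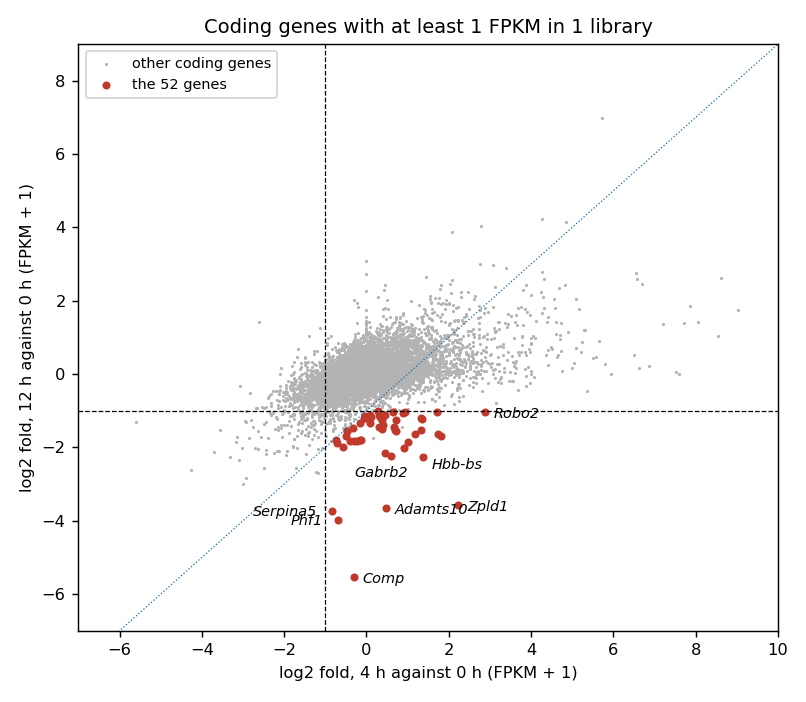
Log2 fold of 4 h against 0 h (horizontal axis) and of 12 h against 0 h (vertical axis), on FPKM + 1, for 12700 coding genes in grey and the 52 genes in red, with 1 library per time. Dashed lines mark a log2 fold of -1 and the dotted line a log2 fold of -1 for 12 h against 4 h; most red points sit just under the horizontal line, and Comp lies far below at -5.54.

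The files give each level a lower and an upper bound, set 2 deposited standard deviations from the estimate, and the bounds describe the estimate within a library, not the spread between mice. In 38 of the 52 genes the 12 h interval lay wholly below those of 0 h and 4 h, as in 2.85% of coding genes. It overlapped at least 1 of them in the other 14, which were Adamts10, Clic3, Cystm1, Ecscr, Gm21992, Gzma, H4c6, Hbb-bs, Phf1, Polr2k, Rab43, Rps16, Serpina3a and Tmsb15b1. The genes nearest inside the limit at 12 h against 0 h were Cystm1 (-1.003), Emp1 (-1.02) and Bpifb6, and among those just outside were Nxf2 (-0.98) and Cd44 (-0.97). At 4 h against 0 h Serpina5 (-0.83), Serpina3a (-0.74) and Slc26a7 (-0.72) were nearest inside, with Rnf41 (-1.02), Frzb (-1.18) and 4930550L24Rik (-1.21) outside. At 12 h against 4 h Serpina3a (-1.06), H4c6 and Srbd1 (-1.08) were nearest inside, with Etv4 (-0.98), 1700092M07Rik and Ctsh (-0.93) outside. H4c6, Sec61g, Apela and Bpifb6 were listed at 0 at 12 h, so no fold is given for them there. Sec61g, Apela and Bpifb6 are among the 38, but both of their 12 h bounds were listed at 0 too. Such an interval has no width, so its separation says little. For Sec61g the 4 h interval reached down to 0.0583 FPKM.

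The list changed with the scale of the libraries. On libraries rescaled to the mean of their summed FPKM the rule held for 37 of the 52 genes. Of the 15 that no longer met it, Serpina5 and Slc26a7 were lower by 2-fold already at 4 h, 11 fell short of 2-fold between 4 h and 12 h (Slc26a7 again, Srbd1, Tox, Serpina3a, Paqr9, Pcdh8, Rab43, Slc24a4, Clic3, Cystm1 and H4c6), and Robo2, Slfn14, Emp1 and Cystm1 fell short between 0 h and 12 h. With median-of-ratios scaling 50 of the 52 met the rule and only Cystm1 and Emp1 did not.

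The group of matrix and secreted proteins held the genes with the lowest log2 fold at 12 h, Comp against 0 h and Zpld1 against 4 h. Its median log2 fold of 12 h against 0 h was -1.80, close to -1.86 for transport and metabolism and -1.79 for cytoskeleton, trafficking and signalling. Of 9 such genes 4 were lower by more than 8-fold on FPKM + 1 at 12 h against 0 h by their coding isoforms. Of the 4, Adamts10 was not lower with its non-coding isoforms summed. 3 of the 9 had been higher by at least 2-fold at 4 h, as had 10 of all 52 and 9.77% of coding genes tested. Comp encodes cartilage oligomeric matrix protein, a member of the thrombospondin family that forms pentamers and binds collagens. Comp was at 125 FPKM (deposited interval 119 to 131) at 0 h, 101 FPKM (95.1 to 106) at 4 h and 1.70 FPKM (0.964 to 2.44) at 12 h. The 3 intervals lie apart, and the 12 h library is far below both others. In fragments these levels correspond to about 3684, 2654 and 43.7 on a transcript of 2416 nt. The log2 fold of Comp was -0.31 for 4 h against 0 h, -5.23 for 12 h against 4 h and -5.54 for 12 h against 0 h. The gene lies on chromosome 8 at 70373548 to 70382066 of GRCm38, the assembly called mm10.

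Other thrombospondins did not share this course. Thbs1, which binds and activates latent TGF-beta, was at 189.6 FPKM at 0 h, 422 at 4 h and 322 at 12 h. Thbs4, a pentameric relative of Comp, was at 158 FPKM at 0 h, 259 at 4 h and 173 at 12 h. The matrix protein gene Matn2 was at 9.34, 14.6 and 17.5 FPKM. Of the 6 thrombospondin and matrilin genes with at least 1 FPKM, Comp was the only one lower by 2-fold at 12 h, on the deposited scale and on rescaled libraries. None of 20 measured collagen genes and none of 8 small leucine-rich proteoglycan genes was lower by 2-fold at 12 h against 0 h, and Col4a1 was at 41.2, 149 and 129.5 FPKM.

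**Figure D3:**
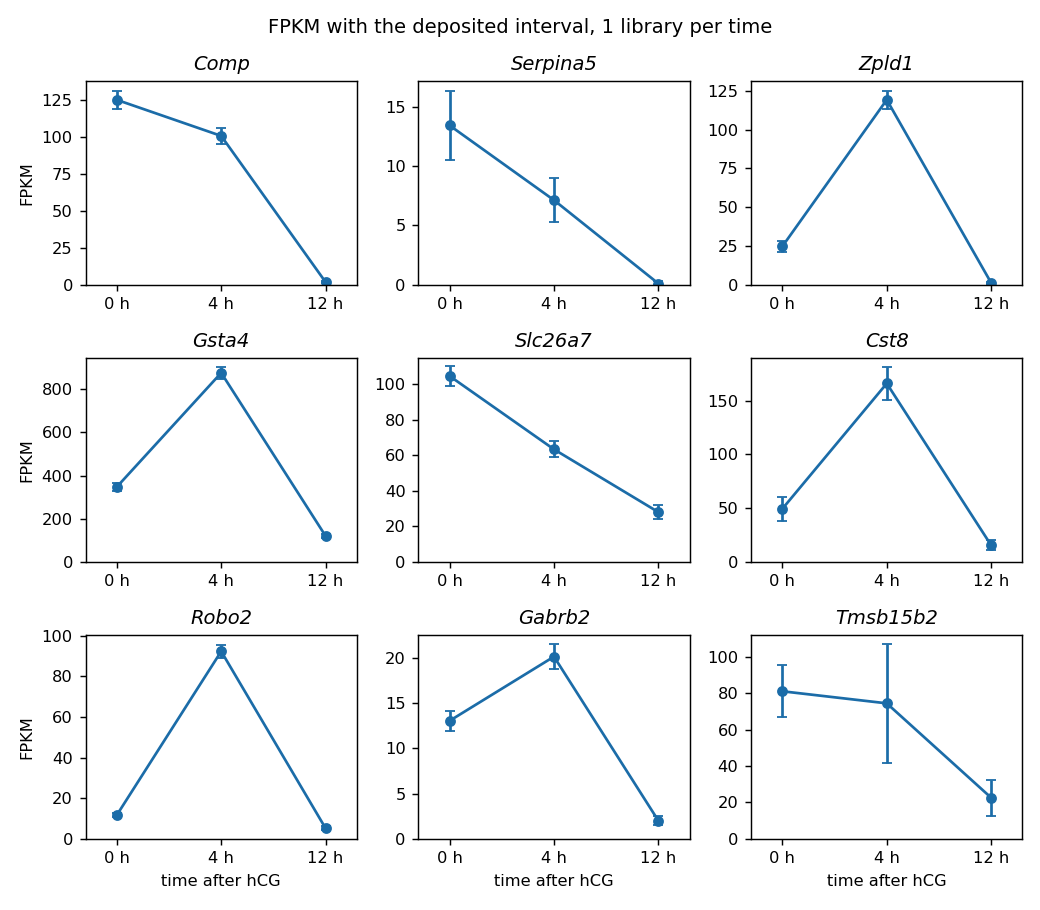
FPKM of 9 of the genes at 0, 4 and 12 h after hCG, 1 library per time, with the deposited interval as the bar. Comp, Serpina5 and Slc26a7 step down at each time, Zpld1, Gsta4, Cst8, Robo2 and Gabrb2 peak at 4 h, and the intervals of Tmsb15b2 at 0 h and 4 h overlap.

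Zpld1 encodes a membrane protein with a zona pellucida domain, the fold by which the proteins of the egg coat and of other extracellular sheets polymerize. It was at 24.7 FPKM (21.0 to 28.4) at 0 h, 119 FPKM (114 to 125) at 4 h and 1.15 FPKM (0.564 to 1.73) at 12 h. The level was thus highest at 4 h and the 12 h library was below both others, with no overlap of the intervals. Zpld1 had a log2 fold of 2.23 for 4 h against 0 h, -5.81 for 12 h against 4 h, the lowest of the 52 genes, and -3.58 for 12 h against 0 h. Of 9 measured genes of zona pellucida domain proteins 3 were lower at 12 h relative to 4 h and only Zpld1 was lower than at 0 h. Oit3, best known from the liver, was at 1.44, 11.5 and 0.613 FPKM, and the TGF-beta co-receptor Eng, a gene of endothelial cells, at 3.81, 11.0 and 3.06 FPKM. Zp2 and Zp3, which the oocyte makes, were at 31.0, 25.5 and 45.9 FPKM and at 33.1, 25.3 and 44.5 FPKM.

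Cst8 encodes a cystatin-related protein best known from the male reproductive tract, and it had a course like that of Zpld1 at higher levels. It was at 49.3 FPKM (38.3 to 60.3) at 0 h, 166 FPKM (151 to 181) at 4 h and 15.3 FPKM (10.51 to 20.1) at 12 h. The 3 intervals did not overlap. The log2 fold of Cst8 was 1.73 for 4 h against 0 h and -1.62 for 12 h against 0 h. Among 4 measured genes of type 2 cystatins Cst3, the secreted protease inhibitor cystatin C, was at 326, 493 and 454 FPKM and Cst12 at 66.1, 86.2 and 48.2 FPKM, both within 2-fold at 12 h against 0 h.

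The promoters of Zpld1 and Cst8, genes with a peak at 4 h, are shown from RefSeq on GRCm38.p6, from 250 bases before to 50 after the RefSeq start, in the direction of transcription. Capitals mark matches, on either strand, to 12 short motifs that were searched: AAGGTCA of NR5A factors, the cAMP response element TGACGTCA, AGATAA of GATA factors, the forkhead site GTAAACA, the C/EBP site TTGCNNAA, the E-box CACGTG, the AP-1 site TGANTCA, the GC box GGGCGG, the steroid receptor repeat ACANNNTGT, the RUNX site TGTGGT, the TCF site CTTTGAT and the TATA box TATAAA. The Zpld1 window is chr16:55283188-55283487 on the minus strand and the Cst8 window chr2:148798589-148798888 on the plus strand. The start used for Zpld1 lies inside the gene span of 55224125 to 55322025, so its window is not at the outer end of the gene.
Zpld1: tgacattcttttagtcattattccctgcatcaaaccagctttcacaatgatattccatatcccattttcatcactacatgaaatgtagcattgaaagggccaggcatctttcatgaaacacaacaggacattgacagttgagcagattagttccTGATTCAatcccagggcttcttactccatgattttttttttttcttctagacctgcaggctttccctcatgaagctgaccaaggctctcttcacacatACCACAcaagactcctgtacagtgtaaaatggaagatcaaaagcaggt
Cst8: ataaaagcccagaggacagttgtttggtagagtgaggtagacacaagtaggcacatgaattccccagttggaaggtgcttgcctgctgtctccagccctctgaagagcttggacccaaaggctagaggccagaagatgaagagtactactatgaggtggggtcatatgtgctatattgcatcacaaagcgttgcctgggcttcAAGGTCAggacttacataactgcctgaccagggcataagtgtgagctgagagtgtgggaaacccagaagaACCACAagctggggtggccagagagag
In Zpld1 an AP-1 site starts 96 bases before this start inside the gene span, and a RUNX site, on the other strand, lies just after it. In Cst8 an NR5A site starts 47 bases before the start and a RUNX site on the other strand 23 bases after it. The AP-1 site is present in 7.22%, the RUNX site in 14.4% and the NR5A site in 3.91% of the 16390 coding gene windows of the same length. These matches are of letters only, and binding was not measured.

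Serpina5, which encodes protein C inhibitor, a serine protease inhibitor found in reproductive fluids, and its neighbour Serpina3a were both lower at each later time. Serpina5 was at 13.4 FPKM (10.49 to 16.3) at 0 h, 7.12 FPKM (5.27 to 8.96) at 4 h and 0.0888 FPKM (0 to 0.313) at 12 h, which is about 350, 166 and 2.02 fragments. Its intervals did not overlap between any of the 3 times. The log2 fold of Serpina5 was -0.83 for 4 h against 0 h and -3.73 for 12 h against 0 h, and on rescaled libraries the 4 h fold was -1.10, which puts it outside the rule. Serpina3a was at 6.41 FPKM (4.10 to 8.71) at 0 h, 3.42 FPKM (1.86 to 5.00) at 4 h and 1.12 FPKM (0.120 to 2.32) at 12 h. Its 12 h interval overlaps that of 4 h. Both genes lie on chromosome 12, Serpina5 at 104099313 to 104106138 and Serpina3a at 104112724 to 104121896, with 6586 bases between them.

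Further clade A serpin genes, chosen for comparison after their values were seen, took other courses. Serpina3c was at 7.45, 0.111 and 0.176 FPKM and so was low already at 4 h. Serpina3g was at 3.10, 9.83 and 1.42 FPKM, and Serpina3n at 0.517, 6.09 and 3.20 FPKM. Serpina3 genes are near-identical copies in the mouse, so reads may have been split between them. Of the 5 measured clade A genes 3 (Serpina5, Serpina3a and Serpina3c) were lower at 12 h relative to 0 h, with a median log2 fold of -1.80. In a list of serpins of several clades, which does not hold Serpina3a, Serpina3c or Serpina3g, 4 of 14 measured genes were lower at 12 h relative to 4 h, and Serpina5 alone was lower than at 0 h. Serpine2, the most abundant serpin of these cells, was at 1844, 2168 and 1211 FPKM.

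The promoters of the 2 neighbouring serpin genes are given in the same form, Serpina5 at chr12:104100863-104101162 and Serpina3a at chr12:104112474-104112773, both on the plus strand.
Serpina5: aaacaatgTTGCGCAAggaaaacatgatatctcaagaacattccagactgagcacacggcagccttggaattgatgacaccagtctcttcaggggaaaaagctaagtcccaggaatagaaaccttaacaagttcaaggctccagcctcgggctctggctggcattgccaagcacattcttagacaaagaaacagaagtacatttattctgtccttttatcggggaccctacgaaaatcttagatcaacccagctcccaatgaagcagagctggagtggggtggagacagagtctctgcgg
Serpina3a: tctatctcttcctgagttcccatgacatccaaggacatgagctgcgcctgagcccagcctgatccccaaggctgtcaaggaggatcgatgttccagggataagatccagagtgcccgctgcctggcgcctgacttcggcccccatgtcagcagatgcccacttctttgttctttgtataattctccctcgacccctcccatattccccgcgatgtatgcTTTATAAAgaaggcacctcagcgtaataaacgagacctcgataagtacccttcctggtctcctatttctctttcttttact
The Serpina5 window, whose RefSeq start lies inside the gene span given above, holds a C/EBP site that reads the same on both strands, 242 bases before the start, as 10.02% of coding gene windows do. The Serpina3a window holds a TATA box 29 bases before its start on the strand of the gene, overlapped by a further match on the other strand, as 13.1% of windows do. None of the 12 motifs was found in both windows. Each window matched a single motif, so the lack of a shared one says little about how alike the windows are.

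Adamts10, a protease that binds fibrillin microfibrils, was at 12.1 FPKM (0 to 34.5) at 0 h, 17.2 FPKM (10.1 to 24.4) at 4 h and 0.0357 FPKM (0 to 0.182) at 12 h. Apela encodes the small hormone that acts on the apelin receptor and was at 1.06 FPKM (0.0249 to 2.101) at 0 h and 5.78 FPKM (3.46 to 8.10) at 4 h, about 10.9 and 52.8 fragments, and was listed at 0 at 12 h. The other ligand gene of that receptor, Apln, ran the other way, at 1.48, 2.39 and 12.3 FPKM. The receptor gene Aplnr was at 1.63, 4.65 and 1.38 FPKM. Gzma, the granzyme A gene of killer lymphocytes, was at 1.55, 2.23 and 0.126 FPKM, about 13.9, 17.8 and 0.980 fragments. The T-cell gene Cd3e and the pan-leukocyte gene Ptprc were below 1 FPKM in all libraries. The other 5 genes of the leukocyte list were measured, with Lyz2 at 45.2, 56.5 and 73.0 FPKM and Cd68 at 2.09, 7.57 and 6.57 FPKM. The part of leukocytes in the level of Gzma was not tested. Bpifb6, a lipid-binding protein of the BPI family, was at 1.03 and 2.17 FPKM at 0 h and 4 h and listed at 0 at 12 h.

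Genes of transport and metabolism formed a group of 7 that included the most abundant of the 52. Gsta4 encodes a glutathione transferase that removes 4-hydroxynonenal, a toxic product of lipid peroxidation. It was at 347 FPKM (329 to 365) at 0 h, 876 FPKM (848 to 905) at 4 h and 119 FPKM (109 to 129.7) at 12 h. The intervals lay apart in all 3 libraries and the level was highest at 4 h. Gsta4 had a log2 fold of 1.33 for 4 h against 0 h, -2.87 for 12 h against 4 h and -1.53 for 12 h against 0 h. Gsta2, an alpha class relative left out by its level at 4 h, had the same order of levels. Gsta3 was at 1.86, 1.99 and 2.86 FPKM.

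The glutathione and detoxification genes as a list were divided. Of 23 measured, 5 were lower and 2 higher at 12 h relative to 4 h, and 3 were lower and 2 higher at 12 h relative to 0 h, with a median of 0.00 for 12 h against 0 h. On rescaled libraries the counts at 12 h against 4 h were 4 lower and 5 higher. The microsomal transferase Mgst1 peaked at 4 h, at 351, 2728 and 434 FPKM, and Gpx3, a secreted peroxidase, was at 164, 287 and 385 FPKM. Gsta4 also belongs to the list of genes of FSH and estradiol action, in which 9 of 22 genes were lower at 12 h relative to 0 h, on the deposited scale and on rescaled libraries, and 10 of 22 were lower at 4 h relative to 0 h (13 on rescaled libraries). Over all coding genes tested, 2.06% were lower at 12 h relative to 0 h and 6.69% at 4 h relative to 0 h. The list was written with earlier results of these data known, and the 9 include Gsta4 and Inhba. The shares are therefore not read as a trait of the list. Its median log2 fold of 4 h against 0 h was -0.79, where Gsta4 was at 1.33.

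Slc26a7 encodes an exchanger of chloride and bicarbonate. It was at 104.5 FPKM (98.8 to 110.3) at 0 h, 63.2 FPKM (58.8 to 67.7) at 4 h and 27.9 FPKM (23.8 to 32.03) at 12 h. The 3 intervals lay apart and each later library was lower than the one before. Its log2 fold of 12 h against 0 h was -1.87, and on rescaled libraries Slc26a7 was at -1.02 for 4 h against 0 h and -0.77 for 12 h against 4 h, outside the rule. The other 3 measured genes of this transporter family were within 2-fold in every comparison, Slc26a11 being at 7.80, 8.08 and 7.56 FPKM.

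Ass1 encodes argininosuccinate synthase, which with the lyase Asl makes arginine from citrulline. Ass1 was at 14.1 FPKM (10.8 to 17.4) at 0 h, 29.1 FPKM (23.9 to 34.3) at 4 h and 3.17 FPKM (0.607 to 5.73) at 12 h. The 12 h interval lay below both others and the log2 fold of 12 h against 0 h was -1.86. Asl was level, at 32.2, 28.1 and 34.4 FPKM. Nos2, the inducible synthase that turns arginine into nitric oxide, was at 13.1, 17.4 and 33.6 FPKM.

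The other metabolic members were lower or less certain. Mgat4c, a glycosyltransferase of the N-glycan pathway by its family, was at 3.34 FPKM (2.47 to 4.22), 7.14 FPKM (2.08 to 17.4) and 0.0732 FPKM (0.0117 to 0.273). Slc24a4, a potassium-dependent sodium and calcium exchanger, was at 3.10, 3.01 and 0.774 FPKM, and Clic3, a chloride intracellular channel protein, at 1.64, 1.55 and 0.146 FPKM, about 13.1, 11.0 and 1.02 fragments. Hbb-bs, a beta globin gene, was at 57.2 FPKM (0 to 134), 149 FPKM (54.7 to 243) and 11.3 FPKM (0 to 34.5). Globin copies are near-identical, and the 4 beta globin genes listed above 0 summed to 1529, 977 and 880.2 FPKM, a log2 fold of -0.80 for 12 h against 0 h. Hbb-b1 alone was at 1199, 647 and 734 FPKM, so the course of Hbb-bs was not that of the sum, and its level cannot be told apart from a different division of reads between copies. The erythroid enzyme gene Alas2 was at 25.7, 14.2 and 10.6 FPKM.

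Receptors and adhesion proteins were the largest group, 14 genes, and in 13 of them the 12 h interval lay below both earlier ones. It did so in 38 of all 52 genes, which were chosen for low 12 h levels, and in 2.85% of coding genes. The median log2 fold of the 14 genes was 0.52 for 4 h against 0 h and -1.38 for 12 h against 0 h. Robo2 encodes a receptor for SLIT proteins, which steer growing axons and migrating cells. It was at 11.7 FPKM (10.7 to 12.7) at 0 h, 92.3 FPKM (88.9 to 95.6) at 4 h and 5.16 FPKM (4.15 to 6.17) at 12 h. The 4 h library is far above the other 2, and the 12 h interval is also below that of 0 h. The log2 fold of Robo2 was 2.88 for 4 h against 0 h, the highest of the 52 genes, -3.92 for 12 h against 4 h and -1.04 for 12 h against 0 h. On rescaled libraries the last value was -0.98, short of the limit.

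Robo1 and Slit2 also peaked at 4 h, and Slit3 did not. Robo1 was at 37.6, 76.6 and 18.9 FPKM, a log2 fold of -0.95 for 12 h against 0 h. The ligand gene Slit2 was at 0.00651, 2.37 and 0.00654 FPKM. Slit3 was at 1.96, 3.63 and 3.93 FPKM. In a list of 29 measured axon guidance genes 11 were higher at 4 h relative to 0 h, 10 were lower at 12 h relative to 4 h and 3 were lower at 12 h relative to 0 h, with medians of 0.76, -0.51 and -0.26. Over all coding genes tested these shares were 9.77%, 7.46% and 2.06%. On rescaled libraries these counts were 9, 9 and 1. The list, which holds Robo2, was also written with earlier results known, so the shares are a description. Of this list Sema3c, a secreted semaphorin, was at 40.8, 126 and 25.1 FPKM, and Plxnc1, a semaphorin receptor, was lower already at 4 h, at 117, 27.4 and 34.8 FPKM.

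Epha5, a receptor for ephrin-A ligands, was at 2.19 FPKM (1.66 to 2.71) at 0 h, 7.08 FPKM (6.00 to 8.16) at 4 h and 0.376 FPKM (0.188 to 0.563) at 12 h, with no overlap. Slitrk6, a transmembrane protein of synapses and the inner ear, was at 3.58 FPKM (2.72 to 4.44), 15.1 FPKM (12.9 to 17.3) and 0.426 FPKM (0.157 to 0.694), again without overlap. Both genes have relatives with a peak at 4 h that returned close to the 0 h level. Epha4 was at 2.06, 23.5 and 2.72 FPKM, Epha7 at 3.76, 16.7 and 2.89 FPKM, and Slitrk5 at 0.162, 3.24 and 0.0756 FPKM.

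Gabrb2 encodes a beta subunit of the GABA-A receptor, a chloride channel of neurons opened by gamma-aminobutyric acid. It was at 13.0 FPKM (11.9 to 14.1) at 0 h, 20.1 FPKM (18.8 to 21.5) at 4 h and 1.998 FPKM (1.52 to 2.48) at 12 h. The 3 intervals lay apart, and the log2 fold of 12 h against 0 h was -2.23. The level was highest at 4 h.

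**Figure D4:**
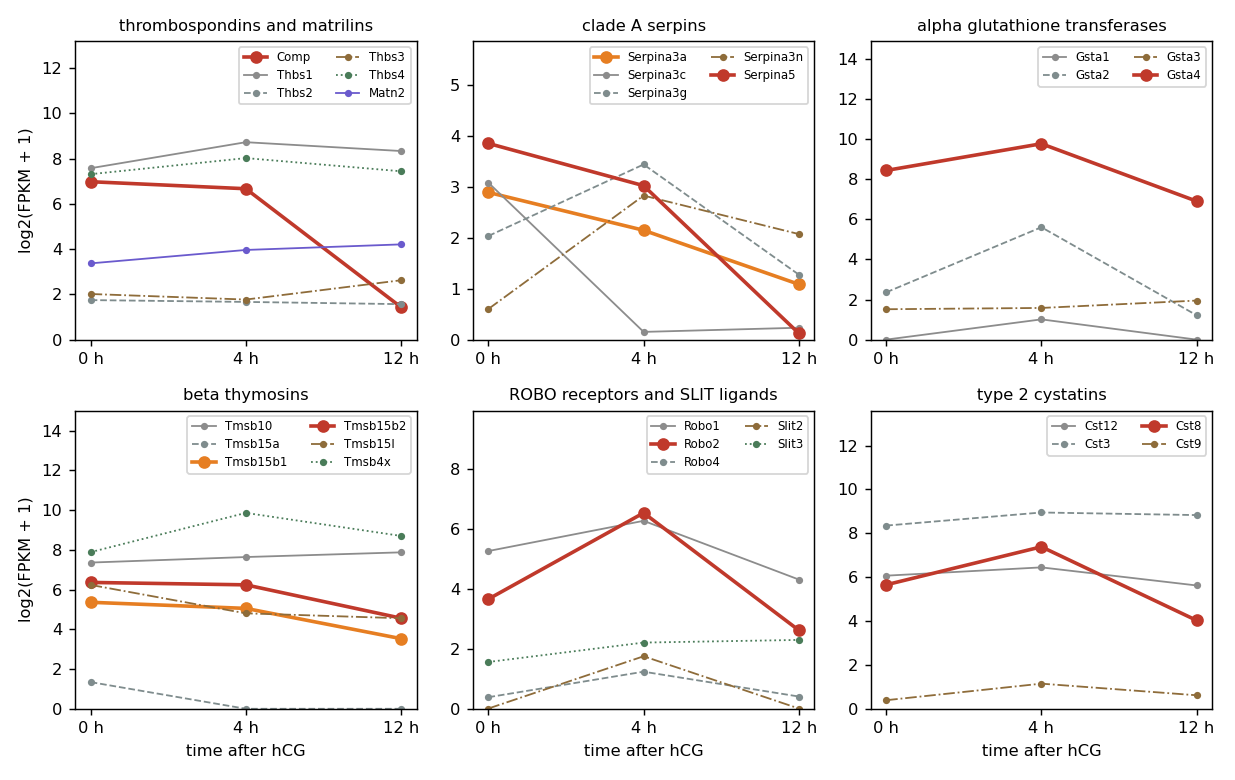
Levels of 6 gene families at 0, 4 and 12 h after hCG as log2(FPKM + 1), 1 library per time, with genes lower at 12 h by the rule in thick red or orange lines and their relatives thin. Comp drops at 12 h while Thbs1 and Thbs4 stay above 7, whereas the 2 Tmsb15b genes run nearly parallel.

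Ly96, known as MD-2, is the partner by which Toll-like receptor 4 binds endotoxin. Ly96 was at 18.6 FPKM (12.6 to 24.7) at 0 h, 43.7 FPKM (33.0 to 54.4) at 4 h and 5.36 FPKM (2.298 to 8.57) at 12 h, with no overlap of the intervals. The leukocyte marker Cd14, the gene of a further endotoxin-binding partner of that receptor, was at 1.13, 4.31 and 2.41 FPKM. Vcam1, an adhesion molecule for leukocyte integrins, was at 7.83 FPKM (6.10 to 9.55), 9.98 FPKM (7.92 to 12.0) and 2.24 FPKM (1.51 to 2.97). Ecscr, a surface protein of endothelial cells, was at 1.82, 3.60 and 0.189 FPKM, about 21.96, 38.9 and 1.996 fragments. The endothelial markers gave no lower gene at 12 h against 0 h, with Cdh5 at 5.59, 10.9 and 5.98 FPKM, and 4 of 7 were lower at 12 h relative to 4 h (2 on rescaled libraries); their part in these levels was not tested.

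Emp1, an epithelial membrane protein, was at 19.9 FPKM (16.8 to 23.0), 39.1 FPKM (35.8 to 42.4) and 9.29 FPKM (7.21 to 11.4), and Tm4sf1, a tetraspanin-like membrane protein, at 11.0, 14.5 and 3.23 FPKM. The synaptic adhesion gene Clstn2 was at 6.92, 8.76 and 2.65 FPKM, while its relative Clstn1 was at 28.6, 27.2 and 23.4 FPKM. Cadm3, a cell adhesion molecule of the nervous system, was at 3.13 FPKM (2.33 to 3.92), 1.802 FPKM (1.22 to 2.39) and 0.0429 FPKM (0 to 0.157), about 206, 106 and 2.47 fragments. Paqr9, of the progestin and adipoQ receptor family, was at 4.67, 4.06 and 1.27 FPKM. H2-T22, a non-classical MHC class I gene with near-identical relatives, was at 3.47 FPKM (1.06 to 5.87), 5.14 FPKM (3.19 to 7.10) and 0.000286 FPKM (0 to 0.210), which is less than 1 fragment at 12 h. Pcdh8, a protocadherin, was at 5.47, 5.36 and 1.93 FPKM as a sum. Of its 2 coding isoforms 1 was at 3.14, 0.512 and 1.93 FPKM. The other peaked at 4 h, at 2.33, 4.85 and 6.61e-05 FPKM. The sum differed in course from the other 5 measured delta protocadherins, all of which peaked at 4 h. Of these Pcdh7 was at 15.1, 53.5 and 13.9 FPKM and Pcdh18 at 4.64, 30.5 and 3.56 FPKM.

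Among 9 genes of the cytoskeleton, trafficking and signalling none was higher by 2-fold at 4 h. Of all 52 genes 10 were, and of coding genes tested 9.77%. The median log2 fold of the 9 genes for 12 h against 0 h was -1.79. Tmsb15b1 and Tmsb15b2 encode beta thymosins, small proteins that bind actin monomers. Tmsb15b2 was at 81.1 FPKM (66.7 to 95.5) at 0 h, 74.4 FPKM (41.7 to 107) at 4 h and 22.6 FPKM (12.7 to 32.4) at 12 h. Tmsb15b1 was at 40.1 FPKM (25.5 to 54.6), 32.2 FPKM (18.7 to 45.7) and 10.5 FPKM (0 to 21.1). The 12 h level was the lowest in both, but the intervals of Tmsb15b1 at 4 h and 12 h overlap.

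The genes lie on the X chromosome, Tmsb15b2 at 136954988 to 136957979 and Tmsb15b1 at 136974022 to 136976874, and both overlap the span of the related gene Tmsb15l. Tmsb15l was at 74.3, 26.9 and 22.5 FPKM, and the 3 genes together at 195, 134 and 55.6 FPKM, a log2 fold of -1.79 for 12 h against 0 h, where Tmsb15b1 had -1.83 and Tmsb15b2 -1.80. The sum was already at -0.55 for 4 h against 0 h, and for 12 h against 4 h it was at -1.25, where Tmsb15b1 had -1.52 and Tmsb15b2 -1.68. Tmsb4x, the most abundant beta thymosin, was at 235, 927 and 415 FPKM, and Tmsb10 at 163, 198 and 233 FPKM. The promoters of Tmsb15b1 (chrX:136976825-136977124) and Tmsb15b2 (chrX:136957930-136958229), both on the minus strand, are shown because they are near-identical as well.
Tmsb15b1: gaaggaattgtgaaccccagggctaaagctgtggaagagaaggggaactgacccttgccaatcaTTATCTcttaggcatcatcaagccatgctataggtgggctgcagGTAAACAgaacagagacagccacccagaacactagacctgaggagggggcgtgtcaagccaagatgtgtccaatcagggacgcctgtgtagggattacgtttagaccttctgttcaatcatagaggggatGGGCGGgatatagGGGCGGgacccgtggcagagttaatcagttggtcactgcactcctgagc
Tmsb15b2: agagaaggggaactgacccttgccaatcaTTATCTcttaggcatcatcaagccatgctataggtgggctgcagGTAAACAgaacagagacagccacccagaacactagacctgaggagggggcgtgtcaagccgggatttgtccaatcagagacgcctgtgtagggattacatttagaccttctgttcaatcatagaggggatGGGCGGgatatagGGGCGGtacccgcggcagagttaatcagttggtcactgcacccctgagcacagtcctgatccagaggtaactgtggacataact
Of 265 aligned positions 257 were the same, or 97.0%. Each window holds a GATA site on the other strand (in 9.82% of coding gene windows), a forkhead site (2.93%) and 2 GC boxes (48.5%) in the same order, at positions offset by the difference between the annotated starts. Of the 52 genes 37 had a promoter window in the RefSeq table, 71.2%, which is under the 80% needed, so motif shares and base composition were not compared between the 52 genes and the rest.

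The coding isoforms of Mapre2 differed in their estimated course. Mapre2, which encodes a protein that follows growing microtubule ends, was at 36.2 FPKM (32.9 to 39.4) at 0 h, 47.5 FPKM (29.2 to 70.7) at 4 h and 14.6 FPKM (5.28 to 25.1) at 12 h as a sum. An isoform with 27.1 FPKM (24.4 to 29.7) at 0 h was at 8.47 FPKM (0 to 25.0) at 4 h and 5.83 FPKM (0 to 13.3) at 12 h. A further isoform was at 9.08 FPKM (7.22 to 10.9), 39.0 FPKM (22.8 to 55.3) and 8.82 FPKM (1.49 to 16.1). Taken alone, this further isoform had a log2 fold of -0.04 for 12 h against 0 h. The 0 h and 4 h intervals of the isoform named before it overlap, so the division of reads at 4 h is uncertain. Mapre1 and Mapre3 were within 2-fold, at 26.8, 37.8 and 25.1 FPKM and at 13.6, 8.57 and 13.0 FPKM. Etl4, a cytoskeletal protein of the notochord, was at 29.2 FPKM (25.3 to 33.8), 26.1 FPKM (23.0 to 30.0) and 7.73 FPKM (6.05 to 9.94), of which 1 of its 5 coding isoforms held 26.0, 24.9 and 5.96 FPKM. She, an SH2 domain adaptor, was at 10.8, 15.2 and 4.41 FPKM. Sec61g, a subunit of the translocon of the endoplasmic reticulum, was at 1.77 and 1.22 FPKM and then listed at 0.

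The 10 genes of the nucleus and of RNA included 5 whose 12 h interval lay below both earlier ones. This held for 38 of all 52 genes and for 2.85% of coding genes. Srbd1, an S1 RNA-binding domain protein, was at 66.4 FPKM (62.7 to 70.1) at 0 h, 47.2 FPKM (44.1 to 50.3) at 4 h and 21.9 FPKM (19.7 to 24.0) at 12 h, each later library below the one before. On rescaled libraries Srbd1 had a log2 fold of -0.70 for 12 h against 4 h, short of the limit. Zfp711, a zinc finger transcription factor on the X chromosome, was at 19.3 FPKM (17.5 to 21.1), 49.6 FPKM (46.7 to 52.4) and 7.92 FPKM (6.29 to 9.54), with no overlap. Tox, an HMG-box factor of T-cell development, was at 7.38, 4.89 and 1.62 FPKM, and Slfn14, an endoribonuclease, at 9.81, 18.9 and 4.21 FPKM.

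Several nuclear members had low levels. Polr2k, a subunit shared by the RNA polymerases, was at 2.65, 2.97 and 0.609 FPKM. H4c6, a histone gene of 1 exon whose span is 383 bases, was at 1.94 and 1.10 FPKM and listed at 0 at 12 h. Gm21992, whose span overlaps the RNA-binding protein genes Rbm4 and Rbm14, was at 5.78, 7.92 and 1.59 FPKM. Rps16, a protein of the small ribosomal subunit, was at 2.57 FPKM (0.319 to 4.82), 4.90 FPKM (2.03 to 7.76) and 0.207 FPKM (0 to 0.843). The median of 30 small subunit genes was 85.5, 87.9 and 98.4 FPKM, and 9 of the 30 were under 5 FPKM in all libraries, Rps16 among them. The level of Rps16 is thus far from that of most subunit genes. AU021092, Rtl8a and Cystm1, genes for which no role is given here, were at 11.1, 18.4 and 3.23 FPKM, at 3.15, 3.43 and 0.640 FPKM, and at 6.72, 8.37 and 2.85 FPKM.

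Non-coding isoforms removed 6 genes from the list. Only coding isoforms (RefSeq NM entries) were summed by the rule, but Adamts10, Atg9a, Nol9, Phf1, Rab43 and Synj2bp also have isoforms annotated as non-coding (NR entries). These 6 are 11.5% of the 52 genes, where 433 coding genes, 3.41% of those with at least 1 FPKM, have such isoforms. Phf1 encodes an accessory subunit of the Polycomb complex PRC2, which methylates histone H3. The coding sum of Phf1 was at 15.4 FPKM (8.57 to 22.3), 9.09 FPKM (0 to 27.8) and 0.0415 FPKM (0.0118 to 0.255). Its non-coding isoform was at 3.15 FPKM (0 to 9.39), 9.42 FPKM (0 to 28.3) and 18.3 FPKM (15.0 to 21.6). Together they were level, at 18.6, 18.5 and 18.4 FPKM. The share held by coding isoforms was 83.0%, 49.1% and 0.226%. At 4 h the intervals of both reached down to 0, so the share at that time is uncertain.

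In the other 5 genes the coding sum was also lower at 12 h, while the sum of all isoforms stayed within 2-fold. For Adamts10 the sum of all isoforms was 50.8, 49.3 and 70.5 FPKM, a log2 fold of 0.46 for 12 h against 0 h. Its non-coding isoforms had wide intervals at 12 h, 0 to 55.7 FPKM and 14.7 to 89.1 FPKM. Atg9a, a lipid scramblase of autophagy, had a coding sum of 13.8, 11.5 and 3.20 FPKM and a sum of all isoforms of 13.8, 13.7 and 15.5 FPKM. Nol9, a kinase of ribosomal RNA processing, was at 12.6, 20.6 and 3.96 FPKM by coding isoforms and 17.5, 24.2 and 18.4 FPKM by all. The small GTPase Rab43 was at 4.19, 4.50 and 1.39 FPKM by coding isoforms and 9.69, 8.41 and 9.05 FPKM by all. Synj2bp, a protein of the outer mitochondrial membrane, was at 8.13, 5.89 and 1.57 FPKM by coding isoforms and 8.14, 5.89 and 5.64 FPKM by all. In none of the 6 was the sum of all isoforms lower by 2-fold at 12 h, and 46 of the 52 genes met the rule on such sums. The other PRC2 genes were within 2-fold at 12 h, with Ezh2 at 30.1, 29.0 and 31.1 FPKM and Suz12 at 29.4, 26.4 and 26.1 FPKM.

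**Figure D5:**
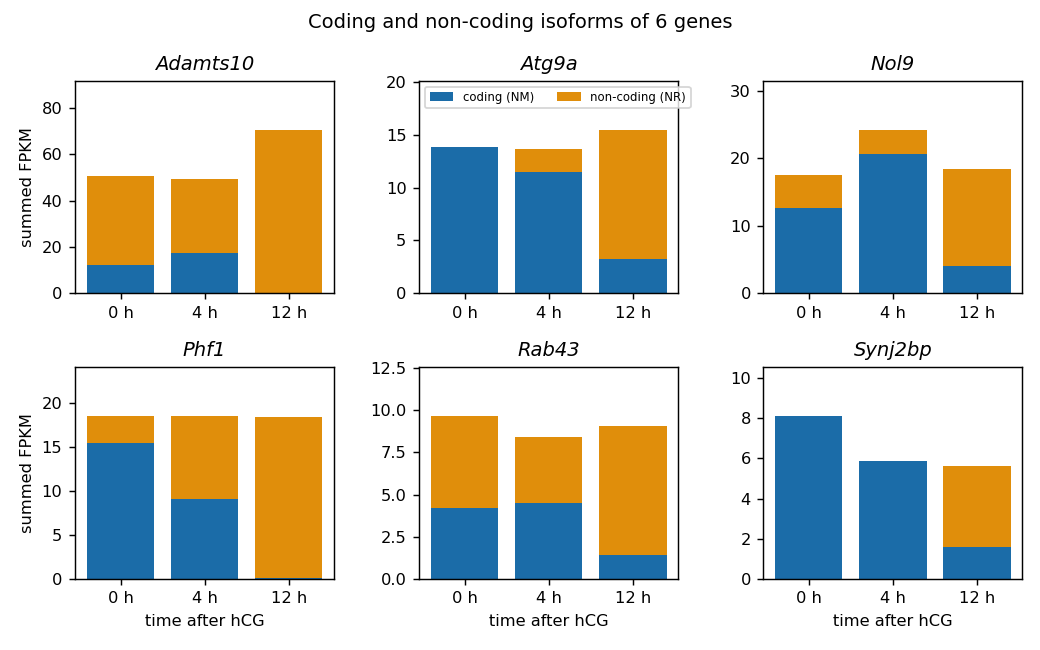
Summed FPKM of coding (NM, blue) and non-coding (NR, orange) isoforms of the 6 genes that have both, at 0, 4 and 12 h after hCG, 1 library per time. The blue part shrinks at 12 h in all 6 genes, to 0.0415 FPKM in Phf1, while the height of the whole bar does not fall by 2-fold in any.

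Chromosomes, spans, neighbours and isoform numbers of the 52 genes are given as a description. They lie on 20 chromosomes, at most 5 on any of them, which is chromosome 2. Their span had a median of 18526.5 bases, from 383 bases (H4c6) to 1555468 bases (Robo2), against a median of 23289 bases over coding genes with at least 1 FPKM. Besides the serpin and thymosin pairs only Ecscr and Cystm1 on chromosome 18 were within 1 Mb of each other, with 626211 bases between them. Of 51 genes found in the GENCODE annotation 10 overlap another coding gene, such as Atg9a with Ankzf1, Clic3 with Paxx and Phf1 with Cuta, each on the opposite strand. The sources used here do not give the strandedness of the libraries, so reads of such pairs may not be separated. 15 of the 52 genes have several coding isoforms and 37 have 1. The shares of all coding genes with an overlap or with several coding isoforms are not given here. The counts are therefore not read as traits of the 52 genes.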

How the data were processed

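Messenger RNA of mouse granulosa cells was sequenced in 3 libraries, 1 each at 0, 4 and 12 h after hCG. The values are the deposited FPKM of RefSeq isoforms with a lower and an upper bound and a standard deviation, which the authors' table gives per library; the upper bound lay 2 deposited standard deviations above the estimate in 100% of successful estimates, and 12 estimates were marked as failed. CASAVA 1.8, TopHat2 2.1.1, Cufflinks 2.2.1 and mm10 appear in the submitters' processing notes with no role given. Of 34535 isoforms 34169 were given a gene symbol through RefSeq (GRCm38.p6) and 193 through GENCODE, and the 173 without a match were not used.

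FPKM of 29596 coding isoforms were summed per symbol in Python 3.11.15 with pandas 2.3.3, and half-widths of bounds were squared, summed and rooted, which treats isoforms as independent. Where isoforms exchange reads, such bounds are too wide or too narrow. Folds were differences of log2(FPKM + 1), later minus earlier; a fold of 2 is a rule of size, not a test. A gene counted as tested where 1 of the 2 libraries reached 1 FPKM. Depth was read from the spacing of low FPKM values: for 69.7%, 68.5% and 70.5% of values under 10 fragments at 0, 4 and 12 h the distance to a whole number was at most 0.1, where even spacing gives 20%, so fragments are estimates. The steps were tested on simulated data.

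The 52 genes, the gene lists, the families and the role groups were chosen with earlier results of these data known. Named are Comp, Serpina5 and Zpld1, the genes of the set with the lowest folds or highest levels, those nearest each threshold, set genes and abundant others of each list, and further examples picked after their values were seen; no genes of like course were ranked, since 3 libraries cannot do so. Alternatives were other pseudocounts, a floor of 5 FPKM, rescaled libraries, other isoform sums, other thresholds and interval separation.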

Additional observations from a re-analysis of the deposited data

How the results depend on the processing

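No paired analysis was possible because each time has 1 library, and for the same reason no library could be left out. The 52 genes became 269 with a pseudocount of 0.1 FPKM, 18 with 5 FPKM, 138 with the isoform of the highest mean FPKM alone, 159 at a threshold of 1.5-fold and 9 at 4-fold. They were 39 with a floor of 5 FPKM, 46 with non-coding isoforms summed, 38 with separate intervals, 39 on libraries rescaled to a shared mean sum, 50 under median-of-ratios scaling and 41 on libraries rescaled by coding sums, an alternative added after seeing the data. Under these last 3 scalings 37, 50 and 40 of the 52 were among them. On rescaled libraries, with median-of-ratios scaling, with pseudocounts of 0.1 and 5 FPKM and over genes of at least 5 FPKM, the median log2 fold of the 52 genes was -1.47, -1.50, -2.02, -0.81 and -1.62 for 12 h against 0 h, -1.50, -1.75, -2.55, -1.10 and -2.13 for 12 h against 4 h, and 0.0832, 0.35, 0.39, 0.24 and 0.46 for 4 h against 0 h. The rule chose genes lower at 12 h, so the sign of the medians at 12 h was fixed beforehand. The median of 4 h against 0 h stayed positive, but was 0.0832 on rescaled libraries in place of 0.36. Coding genes lower at 12 h than at 0 h were 938 and 93 with pseudocounts of 0.1 and 5 FPKM and 805 at 1.5-fold. At 12 h against 4 h they were 1835, 547 and 2051, and 599 on rescaled libraries. At 4 h against 0 h they were 1936, 299 and 2382, and 1588 on rescaled libraries. Of 104 folds of single genes at 12 h, 89 stayed past 2-fold on rescaled libraries, 102 with median-of-ratios scaling and 101 with the main isoform. The causes of these differences were not tested. Depth limits the genes with few fragments at 12 h, such as Serpina5 and Gzma.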
